A study of Homo sapiens with 52 samples.

Results

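HepG2 cells treated with 0.2 uM PKF118-310 for 48 h (3 libraries) were compared with HepG2 cells that received empty vehicle for 48 h (3 libraries). These are 6 of the 52 libraries of the series, chosen by the cell line and treatment in their labels. HepG2 is an established human hepatoblastoma line, and PKF118-310 is an inhibitor of the complex between beta-catenin and its TCF partners on DNA. Other groups enter as a setting for the same comparison. These are 1 HepG2 library at 0.3 uM PKF118-310, 3 HepG2 libraries each at 5 and 10 uM of iMDK (an inhibitor of the growth factor midkine), and 3 libraries each of Huh6, a second hepatoblastoma line, with 0.2 uM PKF118-310 or vehicle, all treated for 48 h. The 5 uM iMDK libraries enter only the filter, the spread and the mean level of the HepG2 fit. Cells were grown in RPMI-1640 with serum and given 48 h to attach to 6-well plates before the medium was changed for medium with inhibitor or vehicle. Each line is a single tumour line, and the labels do not say that the 3 libraries of a group came from separate cultures, so p-values measure only the spread between these libraries.

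Canonical Wnt signalling stabilises beta-catenin, which enters the nucleus, joins a TCF or LEF factor on DNA and turns on target genes, among them feedback inhibitors such as AXIN2, NKD1 and NOTUM. A complex of scaffolds and kinases marks beta-catenin for breakdown when no ligand is present. HepG2 cells carry a CTNNB1 allele that lacks the stretch recognised by that complex, so their beta-catenin is held stable without a ligand. Beyond its Wnt state, HepG2 is known as a dividing cell that still makes plasma proteins, cholesterol and fetal liver products.

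Reads were counted per gene, and levels are given in CPM, counts scaled to a common library total and adjusted between libraries by the TMM method. The PKF118-310 libraries held 19.5, 19.5 and 20 M counts and the vehicle libraries 19.8, 19.7 and 18.3 M, so that 3 counts correspond to 0.15 to 0.154 CPM and 0.152 to 0.164 CPM. Albumin transcripts took 0.0664 to 0.075% of counts under PKF118-310 and 0.584 to 0.631% under vehicle, and mitochondrially encoded transcripts 3.91 to 4.53% and 5.55 to 7.45%. Spearman correlations over genes were 0.9936 to 0.9941 among PKF118-310 libraries, 0.9938 to 0.9941 among vehicle libraries and 0.9424 to 0.946 between the groups. Hepatocyte lineage markers summed to 5240 to 5600 CPM under PKF118-310 and 18800 to 19500 CPM under vehicle. Of 12 macrophage markers, 6 had enough counts to test and 0 rose, and PTPRC and TYROBP held at most 1 count in any of the 6 libraries. Some genes that every cell uses, such as RPL15 and CDK2, had 0 counts in all 13 HepG2 libraries, so a 0 in this table is not read as absence. In bulk RNA, fewer cells of a type and less RNA per cell cannot be told apart.

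Of the genes that could be tested, 67.7% changed in one direction or the other. Of 15451 genes tested with edgeR's quasi-likelihood test and Benjamini-Hochberg adjustment, 5293 (34.3%) were higher and 5162 (33.4%) lower at an adjusted p under 0.05. At least 2-fold changes were found for 1812 higher genes (11.7%) and 1893 lower genes (12.3%), and at least 4-fold changes for 782 (5.06%) and 632 (4.09%). The values of the PKF118-310 and vehicle libraries did not overlap for 10777 genes (69.7%). Counts of list members are to be read against these shares. The median log2 fold change over all tested genes was 0.0062, and its 10th and 90th percentiles were -1.24 and 1.25. Changes of at least 16-fold were more frequent among higher genes (164, 1.06%) than among lower genes (19, 0.123%).

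The gene with the largest rise among those above the level set for naming was MMP3, a secreted protease that cuts matrix proteins. It had 537, 649 and 616 CPM in the PKF118-310 libraries, against 0.318, 0.523 and 0.171 CPM in the vehicle libraries, a log2 fold change of 10.75 ± 0.1 (SE, adjusted p = 5.86e-44). The vehicle values lie near the level of 3 counts, so the size of this fold rests on few vehicle reads. Genes of varied function followed it. IGFN1, which encodes a protein with immunoglobulin and fibronectin domains, averaged 147 ± 17.6 CPM against 0.543 ± 0.153 CPM (SD, n = 3 each), and the microtubule-binding NAV3 averaged 59.1 ± 3.82 CPM against 0.502 ± 0.11 CPM. The Wnt ligand WNT7B had 81.2, 80.8 and 79.1 CPM under PKF118-310, against 0.795, 0.785 and 0.91 CPM under vehicle. Its log2 fold change was 6.59 ± 0.11. Further rises were those of the zinc finger gene ZNF804A (6.42), the cyclic nucleotide phosphodiesterase PDE2A (6.31), the neurotensin receptor NTSR1 (6.12), TAGLN3 of the transgelin family (6.00), the nuclear body protein SP140 (5.84), TMEM92 (5.79) and the laminin chain LAMB3 (5.73), all as log2 fold changes. ST13P12 (7.01) is a pseudogene that shares sequence with its parent, so its reads cannot be assigned with certainty.

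Falls in that set covered liver products, cell division genes and others. HPX, the haem-binding plasma protein hemopexin, changed by -4.13 ± 0.17, with 0.881 ± 0.164 CPM against 15.5 ± 1.47 CPM (SD, n = 3 each). Other falls, by log2 fold change, were those of the smoothelin-like SMTNL2 (-3.83), the protease precursor PGC (-3.72), the homeobox gene HOXD1 (-3.55), the bile acid receptor gene NR1H4 (-3.52), the DNA helicase PIF1 (-3.49), the diacylglycerol kinase DGKK (-3.47), the proliferation marker MKI67 (-3.46), the cytokinesis kinesin KIF20A (-3.45), the kinetochore subunit SPC25 (-3.40) and the anion transporter SLCO4C1 (-3.37).

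**Figure D1:**
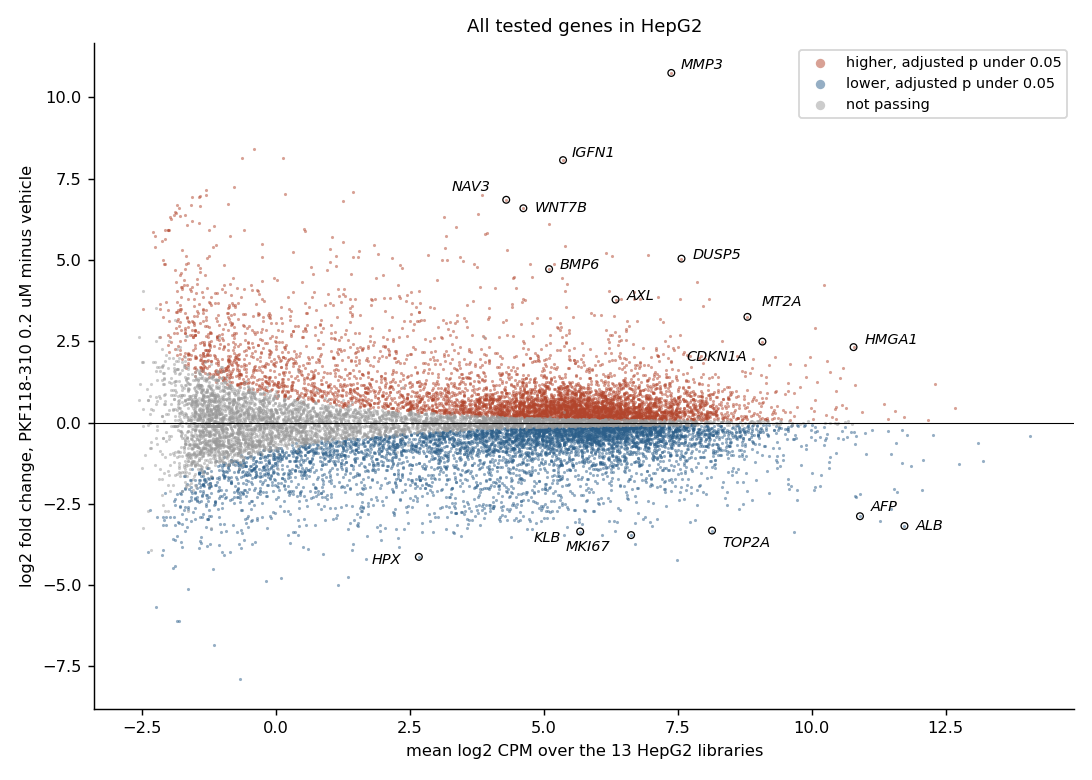
Each point is one tested gene, with its mean log2 CPM over the 13 HepG2 libraries on the horizontal axis and its log2 fold change (PKF118-310 0.2 uM minus vehicle) on the vertical axis; colours mark adjusted p under 0.05 in either direction. MMP3 stands at 10.75, while ALB and AFP, among the most abundant transcripts, lie at -3.18 and -2.88.

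Genes of cell division fell as a block. All 29 tested mitosis, spindle and kinetochore genes of 30 listed were lower, against 33.4% of all tested genes, and their log2 fold changes ran from -3.46 to -1.9 with a median of -2.73. MKI67, a marker of cycling cells, had 25.5, 18.5 and 23.1 CPM in the PKF118-310 libraries, against 262, 234 and 240 CPM in the vehicle libraries (adjusted p = 2.37e-36). TOP2A, the topoisomerase that untangles chromosomes before mitosis, had 75.6, 67.8 and 73.2 CPM under PKF118-310, against 737, 695 and 726 CPM under vehicle, a log2 fold change of -3.32 ± 0.038. For both genes the highest treated library was far below the lowest vehicle library. PLK1, a kinase of mitotic entry, averaged 33.2 ± 1.07 CPM against 257 ± 4.31 CPM (SD, n = 3 each), and the cyclin CCNB2 7.57 ± 0.678 CPM against 50.7 ± 2.07 CPM. The least lowered members were PTTG1, the securin gene, and INCENP, a subunit of the chromosomal passenger complex, both at -1.9.

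Promoter sequence was examined for this list because late cell cycle genes are known to share an element named CHR (letters TTTGAA) placed near CCAAT boxes. In the RefSeq promoter table (GRCh38.p14), 24 of the 29 genes had an entry. Within 250 bases before the start, on either strand, CHR letters occurred in 13 of the 24 (54.2%), against 13.6% of all 27305 promoters searched and 8.74% of those of tested genes. CCAAT occurred in 19 of the 24 (79.2%), against 33.0% of all and 34.5% of those of tested genes. The CCAAT share was not particular to this list. It was 81.2% (13 of 16) for genes of cholesterol synthesis and uptake and 60.7% (17 of 28) for DNA replication genes. The CHR and CCAAT strings can share at most 1 letter at their ends. A match describes the sequence and is not evidence of binding. The last 150 bases before the start of CCNB2 (chr15:59104996-59105145, plus strand) and PLK1 (chr16:23678739-23678888, plus strand) are shown 5′ to 3′ because both hold the pair, with CHR and CCAAT letters in capitals. In each, CHR letters run from position -29 to -24 relative to the start.
CCNB2: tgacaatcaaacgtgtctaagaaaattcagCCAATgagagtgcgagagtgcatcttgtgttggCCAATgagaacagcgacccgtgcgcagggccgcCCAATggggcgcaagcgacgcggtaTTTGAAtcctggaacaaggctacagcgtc
PLK1: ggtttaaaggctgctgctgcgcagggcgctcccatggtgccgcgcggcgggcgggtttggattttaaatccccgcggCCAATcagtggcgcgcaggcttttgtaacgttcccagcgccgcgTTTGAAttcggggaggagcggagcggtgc

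DNA replication genes moved the same way. All 31 tested members of 34 listed were lower, with a median log2 fold change of -2.04 and a range of -2.86 to -0.9. MCM10, which helps activate replication origins, had 8.15, 7.29 and 8.14 CPM in the PKF118-310 libraries, against 58, 55.2 and 57.9 CPM in the vehicle libraries. RRM2, the regulated subunit of the enzyme that makes deoxynucleotides, averaged 35.2 ± 2.58 CPM against 243 ± 7.03 CPM (SD, n = 3 each). PCNA, the sliding clamp of DNA polymerases, fell less, with 185, 186 and 178 CPM under PKF118-310, against 469, 468 and 485 CPM under vehicle, a log2 fold change of -1.37 ± 0.032. GINS3, a helicase subunit, marked the upper end of the list at -0.9 ± 0.077. E2F-type letters (TTTCNCGC, either strand) occurred within 250 bases before the start in 9 of 28 replication promoters (32.1%), against 2.64% of all promoters searched and 3.93% of those of tested genes. That of PCNA (chr20:5126623-5126772, minus strand) is shown 5′ to 3′ with the E2F-type match, read here on the opposite strand, in capitals.
PCNA: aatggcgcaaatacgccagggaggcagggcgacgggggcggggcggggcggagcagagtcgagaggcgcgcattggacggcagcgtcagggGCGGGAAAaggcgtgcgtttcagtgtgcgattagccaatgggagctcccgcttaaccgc

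Homologous recombination and Fanconi repair genes were all lower too, 18 of 18, with a median of -2.29. RAD54L, a motor of strand exchange, changed by -2.89 ± 0.12, while PALB2, which brings BRCA2 to broken DNA, changed by only -0.32 ± 0.054. The regulators of the step into S phase did not share this uniform fall. Of 20 tested G1 genes of 26 listed, 11 were lower and 5 higher, with a median of -0.26. E2F1, the activator of replication genes, had 20.2, 17.8 and 17.4 CPM under PKF118-310, against 118, 122 and 123 CPM under vehicle (log2 fold change -2.71 ± 0.055). The inhibitor gene CDKN2C changed by -3.04 ± 0.15, and the cyclin CCNE2 by -1.48 ± 0.24. Against these, CCND1, the cyclin that starts G1 and a gene often counted among Wnt targets, had 605, 581 and 584 CPM in treated cells and 546, 525 and 531 CPM in vehicle cells. That small rise, 0.14 ± 0.03 (adjusted p = 5.1e-05), kept the groups apart, and the D-type cyclin CCND3 rose by 0.36 ± 0.069.

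CDKN1A, which encodes the cyclin-dependent kinase inhibitor p21, showed the largest rise of the G1 list. It had 1030, 1050 and 1020 CPM in the PKF118-310 libraries, against 181, 182 and 187 CPM in the vehicle libraries, a log2 fold change of 2.49 ± 0.032 (adjusted p = 2.21e-40). CDKN1A is a classic p53 target, and 14 of 23 tested p53 targets were higher and 6 lower, with a median of 0.67. PMAIP1, a death-promoting BCL2 family member also called NOXA, rose by 2.69 ± 0.079, the stress kinase PLK3 by 2.46 ± 0.062 and the secreted stress factor GDF15 by 1.67 ± 0.03. MDM2, which encodes the ubiquitin ligase that degrades p53, rose by 0.67 ± 0.037, whereas CCNG1, another p53 target, changed by -0.87 ± 0.035. In the BCL2 family, 11 of 14 tested genes were higher and 2 lower, and the 11 included protectors and killers. The survival gene MCL1 averaged 817 ± 14.6 CPM against 297 ± 6.95 CPM (SD, n = 3 each), and its relative BCL2A1 had 4.18, 4.27 and 2.39 CPM against 0.053, 0.105 and 0 CPM. The killer HRK averaged 4.05 ± 0.707 CPM against 0.284 ± 0.218 CPM, while the killer BMF changed by -1.08 ± 0.08.

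**Figure D2:**
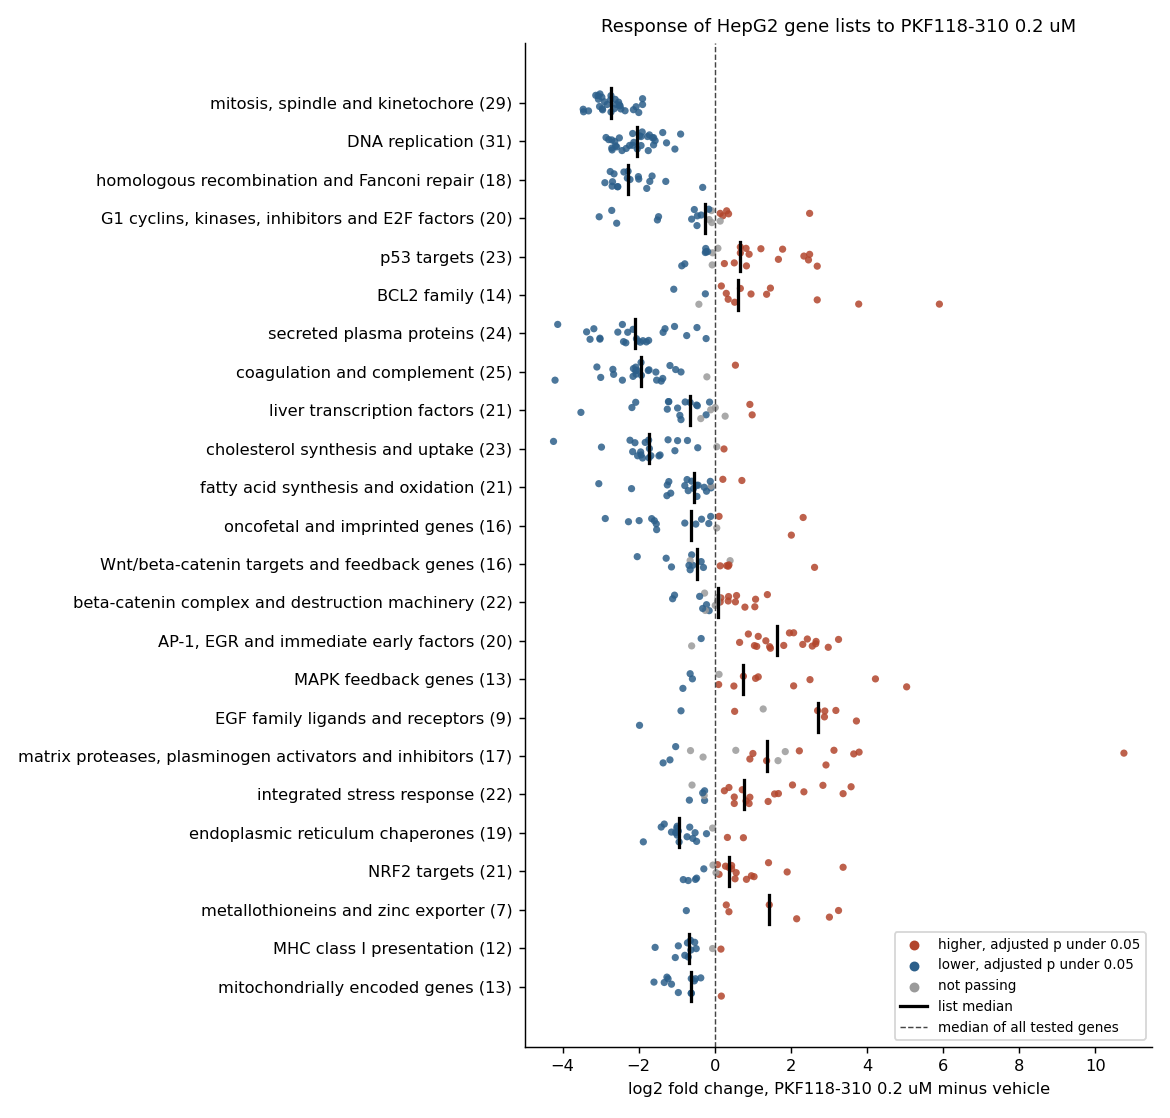
Log2 fold changes (PKF118-310 0.2 uM minus vehicle) of the tested members of 24 gene lists, one point per gene, with the number tested in parentheses, the list median as a black bar and the median of all tested genes as a dashed line. Mitosis and replication lists lie wholly below 0 (medians -2.73 and -2.04), while the list of AP-1, EGR and immediate early factors has a median of 1.63.

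Wnt target genes, the transcripts nearest to the named action of the inhibitor, were split. Of 16 tested targets and feedback genes, 9 were lower and 5 higher, against 33.4% and 34.3% of all tested genes. Their median was -0.47. NOTUM, an enzyme that inactivates secreted Wnt proteins, had 142, 127 and 142 CPM in the PKF118-310 libraries, against 307, 297 and 303 CPM in the vehicle libraries, a log2 fold change of -1.14 ± 0.037. TNFRSF19, a receptor of the TNF family, fell more, to 67.6 ± 1.09 CPM against 278 ± 6.55 CPM (SD, n = 3 each), and KREMEN1, a co-receptor of DKK1, changed by -1.28 ± 0.046. Smaller falls were found for ZNRF3, which removes Wnt receptors from the surface (-0.68), for the R-spondin receptor LGR5 (-0.65), for the antagonist DKK1 (-0.61) and for the feedback inhibitor NKD1 (-0.36).

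AXIN2, the scaffold of the destruction complex and a common readout of the pathway, went the other way. It had 186, 199 and 194 CPM under PKF118-310, against 146, 156 and 153 CPM under vehicle, and all treated values were above all vehicle values. Its log2 fold change was 0.35 ± 0.039 (adjusted p = 1.83e-10). MYC rose by 0.31 ± 0.034, with 218, 216 and 217 CPM against 178, 173 and 174 CPM, and the T-box factor TBX3 rose by 0.37 ± 0.036. The fifth higher member, CD44, an adhesion receptor for hyaluronan, was close to the level of 3 counts, with 0.352, 0.553 and 0.195 CPM in the PKF118-310 libraries, against 0, 0.0523 and 0.114 CPM in the vehicle libraries.

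The machinery around beta-catenin changed gene by gene. Of 22 tested members, 10 were higher, 6 lower and 6 did not pass, with a median of 0.07. CTNNB1, which encodes beta-catenin, had 692, 673 and 678 CPM in treated cells and 758, 752 and 750 CPM in vehicle cells, a change of -0.15 ± 0.028 that no longer passed when libraries were scaled by size alone (adjusted p = 0.051). The beta-catenin co-activator BCL9L rose to 280 ± 3.75 CPM against 108 ± 5.36 CPM, the destruction complex kinase CSNK1A1 to 239 ± 3.85 CPM against 115 ± 7.15 CPM, and the co-repressor TLE3 by 1.07 ± 0.052. DVL1, which relays the receptor signal, rose by 0.79 ± 0.031. CTNNBIP1, which encodes a protein that keeps beta-catenin off TCF, changed by -1.11 ± 0.056. Among 25 tested ligands and receptors, 8 were higher and 9 lower, close to the 34.3% and 33.4% of all tested genes. Beside WNT7B, the ligand WNT9A rose by 3.8 ± 0.24 (7.37 ± 0.459 CPM against 0.521 ± 0.196 CPM), whereas the receptor FZD4 changed by -2.64 ± 0.15 and the co-receptor LRP5 by -0.86 ± 0.031. MDK, the midkine gene, changed by -0.26 ± 0.033 (245 ± 3.11 CPM against 294 ± 11 CPM), and its heparan sulfate co-receptor SDC2 by -1.55 ± 0.036.

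Early response transcription factors rose together. Of 20 tested AP-1, EGR and immediate early factors, 18 were higher, 16 of them at least 2-fold against 11.7% of all tested genes, and 1 was lower. FOSL1, a FOS-related AP-1 subunit, had 212, 215 and 216 CPM in the PKF118-310 libraries, against 26.3, 26.9 and 28.2 CPM in the vehicle libraries, a log2 fold change of 2.98 ± 0.046. Its AP-1 partner JUN had 341, 356 and 352 CPM under PKF118-310, against 86.4, 80.6 and 82.9 CPM under vehicle, a log2 fold change of 2.07 ± 0.037. Neither gene showed overlap between the groups. EGR1, a zinc finger factor induced by growth factors, rose by 2.56 ± 0.061, KLF4 by 3.25 ± 0.16, FOS by 2.66 ± 0.2 and KLF6 by 1.96 ± 0.031. The member that fell was JUND, an AP-1 subunit, with a log2 fold change of -0.36 ± 0.042.

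The negative feedback genes of the MAPK cascade divided by gene. Of 13 tested, 9 were higher and 3 lower. DUSP5, a phosphatase that acts on ERK in the nucleus, had 571, 557 and 563 CPM in the PKF118-310 libraries, against 17.2, 17.3 and 16.9 CPM in the vehicle libraries, a log2 fold change of 5.04 ± 0.044 (adjusted p = 3.83e-45). PHLDA1 rose by 2.5 ± 0.041 and SPRED3, an inhibitor of RAF activation, by 4.22 ± 0.19. The 3 members that fell were DUSP6 (-0.59 ± 0.04), the cytosolic ERK phosphatase, the ETS factor ETV5 (-0.65 ± 0.039) and SPRY1 (-0.84 ± 0.048), an inhibitor of receptor tyrosine kinase signalling.

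In the EGF family, 6 of 9 tested genes were higher and 2 lower, with a median of 2.7. The ligand AREG had 316, 332 and 320 CPM in the PKF118-310 libraries, against 36.1, 36.1 and 34.6 CPM in the vehicle libraries (log2 fold change 3.18 ± 0.042). EREG, a related ligand, averaged 63 ± 1.72 CPM against 4.81 ± 0.636 CPM (SD, n = 3 each), HBEGF 23.9 ± 1.52 CPM against 3.67 ± 0.525 CPM, and NRG1 2.45 ± 0.216 CPM against 0.331 ± 0.256 CPM. Their receptor genes went apart. EGFR, the receptor of AREG, EREG and HBEGF, had 220, 230 and 224 CPM under PKF118-310, against 28.6, 30.9 and 32 CPM under vehicle, a log2 fold change of 2.88 ± 0.05. ERBB3, a receptor of NRG1, had 86.3, 73.4 and 86 CPM under PKF118-310, against 343, 306 and 321 CPM under vehicle, a log2 fold change of -1.98 ± 0.045, and ERBB2, their shared partner, changed by -0.89 ± 0.036. The receptor tyrosine kinase AXL, of another family, rose by 3.78 ± 0.051 to 235 ± 2.96 CPM against 17 ± 0.801 CPM.

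**Figure D3:**
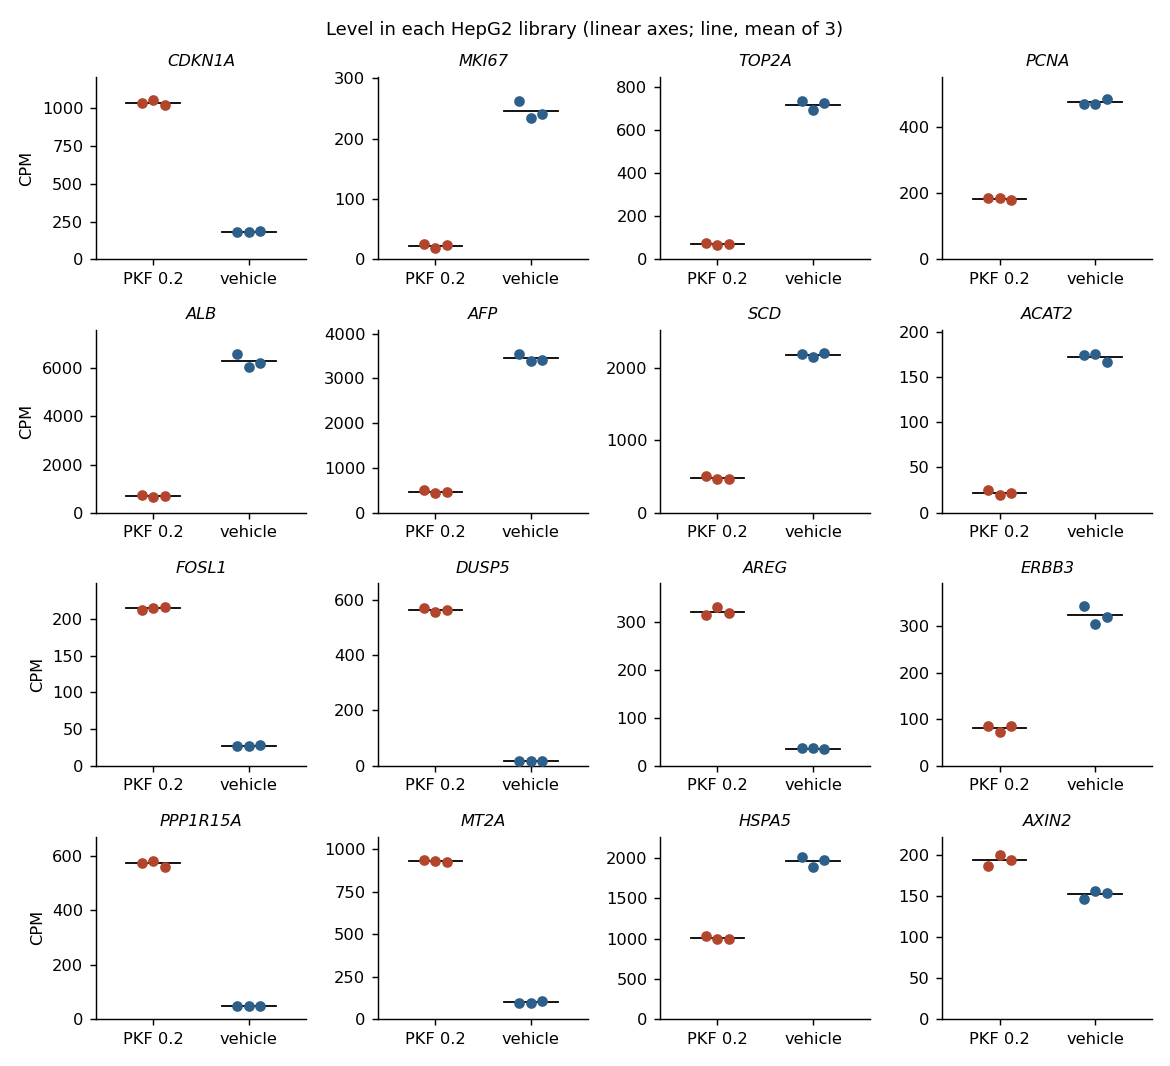
Level in CPM (linear axes from 0) of 16 genes in each of the 3 PKF118-310 0.2 uM libraries (left in each panel) and the 3 vehicle libraries (right), with a line at the mean. In all 16 panels, chosen as genes described in the text, the groups do not overlap, as for 69.7% of all tested genes; they range from AXIN2 (193 ± 6.3 against 151 ± 5.3 CPM) to DUSP5 (563 ± 7.01 against 17.1 ± 0.218 CPM).

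Among proteases, plasminogen activators and their inhibitors, 9 of 17 tested genes were higher and 3 lower. Besides MMP3, the receptor for urokinase PLAUR averaged 45.8 ± 1.66 CPM against 3.64 ± 0.746 CPM (SD, n = 3 each). SERPINE2, an inhibitor of plasminogen activators, had 289, 282 and 297 CPM in the PKF118-310 libraries, against 60.2, 63 and 62.9 CPM in the vehicle libraries, a log2 fold change of 2.22 ± 0.038. The groups were well apart. Adhesion genes were mixed, with 8 of 16 tested integrin and laminin genes higher and 6 lower, against 34.3% and 33.4% of all tested genes. The collagen receptor chain ITGA2 rose by 2.06 ± 0.037 and ITGB4, which binds laminin, by 1.9 ± 0.074, whereas the laminin chain LAMA5 changed by -1.12 ± 0.052. The cadherins CDH1 and CDH2, markers of epithelial and mesenchymal cells, both fell, by 1.11 and 1.41 on the log2 scale. Fibronectin FN1 changed by -1.17 ± 0.052, while SNAI1, a repressor of CDH1, rose by 1.85 ± 0.11. Thus neither the 15 tested epithelial genes (8 higher, 6 lower) nor the 13 mesenchymal genes (5 higher, 4 lower) moved as a block.

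Of 14 tested chemokine and cytokine genes, 8 were higher and 2 lower, against 34.3% and 33.4% of all tested genes. IL11, a cytokine of the IL-6 family, had 247, 250 and 247 CPM in the PKF118-310 libraries, against 19, 17 and 18 CPM in the vehicle libraries, a log2 fold change of 3.79 ± 0.049 (adjusted p = 5.38e-40). The related cytokine LIF rose by 2.48 ± 0.06, the neutrophil attractant CXCL8 by 2.39 ± 0.072 and the macrophage growth factor CSF1 by 1.18 ± 0.053. The chemokines CX3CL1 and CCL20 fell, by 2.7 and 1.55 on the log2 scale. BMP6, a ligand that raises hepcidin in liver, had 98.9, 99.2 and 93 CPM under PKF118-310, against 2.54, 3.92 and 4.61 CPM under vehicle, a log2 fold change of 4.72 ± 0.091. Of its usual target genes, ID1 was lower in the same cells by 1.06 on the log2 scale and the hepcidin gene HAMP by 2.03. The TGF-beta and BMP pathway list as a whole did not fall. Of its 19 tested genes, 7 were higher and 9 lower, with a median of -0.01. The iron exporter gene SLC40A1 rose by 1.63 ± 0.037, and the iron sensor TFR2 changed by -2.07 ± 0.069. The last 150 bases before the IL11 start (chr19:55370464-55370613, minus strand, RefSeq, GRCh38.p14) are shown 5′ to 3′ as an example of a risen gene with AP-1 letters (TGANTCA), in capitals at positions -96 to -90. Such letters occurred in 6.6% of all promoters searched and 4.23% of those of tested genes.
IL11: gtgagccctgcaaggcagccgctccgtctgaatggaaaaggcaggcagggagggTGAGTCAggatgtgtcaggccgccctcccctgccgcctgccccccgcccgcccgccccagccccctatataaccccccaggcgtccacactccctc

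Liver products fell. All 24 tested secreted plasma proteins were lower, 21 of them at least 2-fold against 12.3% of all tested genes, with a median of -2.1 and a range of -4.13 to -0.23. ALB, the albumin gene, had 735, 650 and 694 CPM in the PKF118-310 libraries, against 6600, 6040 and 6240 CPM in the vehicle libraries, a log2 fold change of -3.18 ± 0.039 (adjusted p = 5.46e-41). The lipid-binding APOH averaged 157 ± 8.15 CPM against 1620 ± 9.37 CPM (SD, n = 3 each). The apolipoprotein gene APOA2 fell least, with 1770, 1670 and 1680 CPM in treated cells and 2030, 1950 and 2010 CPM in vehicle cells. Of 25 tested coagulation and complement genes, 23 were lower. The complement genes C3 and C5 changed by -2.05 ± 0.038 and -3.00 ± 0.049. The 1 gene called higher, F12, had 2.67, 2.87 and 2.88 CPM against 1.32, 2.46 and 1.99 CPM. This call ended when either of 2 PKF118-310 or 2 vehicle libraries was left out (adjusted p up to 0.232). It also ended without the filter on low counts (adjusted p = 0.0579) and under DESeq2's Wald test (adjusted p = 0.103).

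The transcription factors of the liver fell less than their products. Of 21 tested, 15 were lower and 2 higher, with a median of -0.65. HNF4A, a central hepatocyte factor, had 218, 216 and 225 CPM in the PKF118-310 libraries, against 443, 422 and 436 CPM in the vehicle libraries (log2 fold change -0.98 ± 0.032). FOXA1 changed by -1.22 ± 0.042, CEBPA by -1.21 ± 0.1, ONECUT1 by -2.08 ± 0.14 and HHEX by -2.18 ± 0.068. The 2 that rose were the xenobiotic receptor NR1I2 (0.98 ± 0.068) and CEBPB (0.92 ± 0.044), a factor of the acute phase. NR1H4, the bile acid receptor named above, had 3.17, 4.22 and 3.85 CPM under PKF118-310, against 44.3, 44.1 and 40.7 CPM under vehicle. Its well-known target ABCB11, the bile salt export pump, was listed at 0 in the 3 vehicle libraries and at 0.453, 1.21 and 0.731 CPM in treated ones, at least 14.8-fold higher when 3 counts are allowed over the vehicle group. KLB, the co-receptor for FGF19 in hepatocytes, averaged 9.61 ± 1.32 CPM against 98.2 ± 4.61 CPM.

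Amino acid metabolism gave exceptions. Of 13 tested urea cycle and amino acid breakdown genes, 8 were lower and 4 higher. HAL, which breaks down histidine, averaged 1.28 ± 0.234 CPM against 7.79 ± 0.374 CPM (SD, n = 3 each). HPD, an enzyme of tyrosine breakdown, rose to 630 ± 12.4 CPM against 314 ± 13.2 CPM. NAGS, whose product switches on the urea cycle, had 53.1, 52.6 and 48.4 CPM under PKF118-310, against 6.31, 6.7 and 5.74 CPM under vehicle, a log2 fold change of 3.03 ± 0.08.

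Oncofetal and imprinted genes were mostly lower, 12 of 16 tested, with 3 higher. AFP, the fetal counterpart of albumin, had 509, 433 and 462 CPM in the PKF118-310 libraries, against 3550, 3390 and 3420 CPM in the vehicle libraries (log2 fold change -2.88 ± 0.038). The surface proteoglycan gene GPC3 changed by -1.54 ± 0.03, the growth factor IGF2 by -1.99 ± 0.041 and the imprinted PEG10 by -2.27 ± 0.04. A pair of relatives parted here. The chromatin protein gene HMGA1 had 3900, 3840 and 3820 CPM under PKF118-310, against 781, 748 and 783 CPM under vehicle, a log2 fold change of 2.32 ± 0.028, while HMGA2 changed by -0.79 ± 0.032. KRT19, a keratin of bile duct and progenitor cells, rose by 2.01 ± 0.032.

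Cholesterol genes fell with few exceptions. Of 23 tested genes of cholesterol synthesis and uptake, 21 were lower and 1 higher, with a median of -1.73. ACAT2, which makes the acetoacetyl-CoA that feeds the pathway, had 24.9, 19.6 and 21.2 CPM in the PKF118-310 libraries, against 175, 176 and 167 CPM in the vehicle libraries, a log2 fold change of -2.98 ± 0.053 (adjusted p = 9.6e-36). All 3 treated values were far below all 3 vehicle values. SREBF2, the factor that drives these genes, changed by -0.45 ± 0.031. Fatty acid genes fell less, 18 of 21 with a median of -0.56. The desaturase SCD averaged 481 ± 17.9 CPM against 2190 ± 30.4 CPM (SD, n = 3 each), and the fatty acid carrier FABP1 41 ± 4.87 CPM against 339 ± 10.4 CPM.

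Stress genes separated into an arm that rose and an arm that fell. Of 22 tested integrated stress response genes, which act downstream of a block of translation initiation, 16 were higher and 4 lower, with a median of 0.77. PPP1R15A, the subunit that reverses that block, had 574, 583 and 559 CPM in the PKF118-310 libraries, against 47.3, 47.7 and 48.5 CPM in the vehicle libraries, a log2 fold change of 3.58 ± 0.037. The cystine transporter SLC7A11 rose by 3.37 ± 0.073, the factor ATF3 by 2.84 ± 0.055 and TRIB3 by 1.67 ± 0.032, while ATF4 itself rose by 0.72 ± 0.03. The serine synthesis enzyme PSPH changed by -0.67 ± 0.047. By contrast, 16 of 19 endoplasmic reticulum chaperones were lower and 2 higher, with a median of -0.94. HSPA5, the main chaperone of that compartment, had 1030, 998 and 1000 CPM under PKF118-310, against 2010, 1890 and 1980 CPM under vehicle. PDIA4 changed by -1.88 ± 0.03 and CALR by -1.41 ± 0.029, whereas the co-chaperone DNAJB9 rose by 0.75 ± 0.047. Heat shock genes were mixed, 7 of 14 higher and 4 lower, against 34.3% and 33.4% of all tested genes. HSPA1A, whose reads cannot be told apart from those of its copy HSPA1B with certainty, rose by 1.25 ± 0.044, and the mitochondrial HSPD1 changed by -0.65 ± 0.027.

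Of 21 tested NRF2 targets, the antioxidant genes, 14 were higher and 5 lower, with a median of 0.37. TXNRD1, thioredoxin reductase, rose to 1700 ± 15.3 CPM against 457 ± 17.8 CPM (SD, n = 3 each). NQO1, often taken as the marker of this response, had 768, 761 and 767 CPM in treated cells and 814, 761 and 800 CPM in vehicle cells, and these ranges overlapped (adjusted p = 0.135). AKR1C2, one of several close paralogues, changed by -0.83 ± 0.037. All 4 genes called at least 2-fold among the 7 tested metallothioneins and zinc exporter genes were higher. MT2A, a zinc and copper binding protein, had 935, 930 and 927 CPM under PKF118-310, against 96.3, 94.9 and 103 CPM under vehicle, a log2 fold change of 3.25 ± 0.035 (adjusted p = 1.16e-42). Its paralogue MT1E rose by 2.15 ± 0.058 and MT1F changed by -0.75 ± 0.16, and these near-identical genes can share reads. The last 150 bases before the MT2A start (chr16:56608434-56608583, plus strand, RefSeq, GRCh38.p14) are shown 5′ to 3′ with metal response letters (TGCNCNC, either strand) in capitals. The string is short and occurred in 48.4% of all promoters searched and 56.3% of those of tested genes, and here it occurred 4 times.
MT2A: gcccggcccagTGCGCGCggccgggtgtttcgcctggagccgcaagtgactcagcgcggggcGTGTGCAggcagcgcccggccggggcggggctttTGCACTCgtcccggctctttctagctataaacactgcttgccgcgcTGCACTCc

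For the lists that follow, 34.3% of all tested genes were higher and 33.4% lower. Genes of the aryl hydrocarbon receptor and P450 list rose in 7 of 13 tested cases and fell in 4. CYP1A1, the standard target of that receptor, averaged 69.7 ± 1.5 CPM against 10.4 ± 0.919 CPM (SD, n = 3 each), and CYP2S1 87.4 ± 2.2 CPM against 18 ± 0.638 CPM, while CYP2W1 changed by -1.82 ± 0.05. Lysosome and autophagy genes were 11 higher and 8 lower of 19. The cargo receptor SQSTM1 rose by 1.81 ± 0.031 and the protease CTSB by 1.37 ± 0.028. Glycolysis and hypoxia genes showed 11 lower and 6 higher of 21, with LDHA, which makes lactate, at -1.3 ± 0.031 and PFKFB3, a switch of glycolytic flux, at 1.38 ± 0.062. Mitochondrially encoded transcripts were lower for 12 of 13 genes, with MT-CO1 at -1.26 ± 0.067 and MT-ND6 at -1.6 ± 0.064. MT-ND2 had 2970, 3360 and 3420 CPM in treated cells and 2460, 3340 and 2870 CPM in vehicle cells, so the groups overlapped, although the fit called it higher (0.17 ± 0.059, adjusted p = 0.0105). That call ended without either of 2 PKF118-310 or 2 vehicle libraries, and under DESeq2's Wald test (adjusted p = 0.203).

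Antigen presentation fell moderately. Of 12 tested MHC class I genes, 10 were lower and 1 higher, with a median of -0.67. B2M, the light chain of every class I molecule, had 238, 228 and 234 CPM in the PKF118-310 libraries, against 360, 350 and 372 CPM in the vehicle libraries (log2 fold change -0.63 ± 0.031). HLA-B changed by -0.72 ± 0.041, and HLA-E, a ligand of an inhibitory receptor on natural killer cells, rose by 0.16 ± 0.034, with the caution that HLA genes share sequence. Ligands of the activating receptor NKG2D went apart. ULBP1 had 2.26, 1.71 and 3.41 CPM against 0.265, 0.157 and 0.284 CPM, while MICB changed by -0.82 ± 0.066. Of 16 tested interferon-stimulated genes, 5 were higher and 5 lower, close to the 34.3% and 33.4% of all tested genes, with OAS1 at 2.17 ± 0.17 and IFIH1 at -1.55 ± 0.088. The count of 5 higher became 3 without PKF118-310 replicate 1, and also 3 when only the 6 libraries compared were fitted. Of 14 NF-kappaB feedback genes, 6 were higher and 6 lower, with TNFAIP3 at -1.11 ± 0.045 and SOD2 at -1.04 ± 0.032. Of the macrophage markers, LYZ, the lysozyme gene, was the abundant one, at 232 ± 19.8 CPM against 1220 ± 76.6 CPM. Of 5 tested fibroblast and endothelial markers, 1 was higher and 3 lower, with a median of -1.45. The higher one was the endothelial marker PECAM1 (1.25 ± 0.073), while the fibroblast marker PDGFRB changed by -1.95 ± 0.12. KDR, PDGFRA and THY1 were listed at 0 in all 6 libraries.

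The single HepG2 library at 0.3 uM has no replicate and no test, so its values are shown only. Its counts put all 3 doses in order for some genes. CYP1A1 stood at 10.4 ± 0.919 CPM under vehicle, 69.7 ± 1.5 CPM at 0.2 uM and 275 CPM at 0.3 uM. FABP1 stood at 339 ± 10.4, 41 ± 4.87 and 20.8 CPM in the same order of dose. Other genes were not ordered by dose. MMP3 was at 0.337 ± 0.177 CPM under vehicle, 601 ± 57.4 CPM at 0.2 uM and 352 CPM at 0.3 uM, and GPRC5A, a receptor gene, at 6.75 ± 0.511, 252 ± 3.66 and 93 CPM. NQO1, whose ranges overlapped at 0.2 uM, stood at 1240 CPM at 0.3 uM, and AKR1C2, lower at 0.2 uM, at 496 CPM. Both of those values lay above every vehicle library. MYC, higher at 0.2 uM, stood at 149 CPM at 0.3 uM, below every vehicle library.

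**Figure D4:**
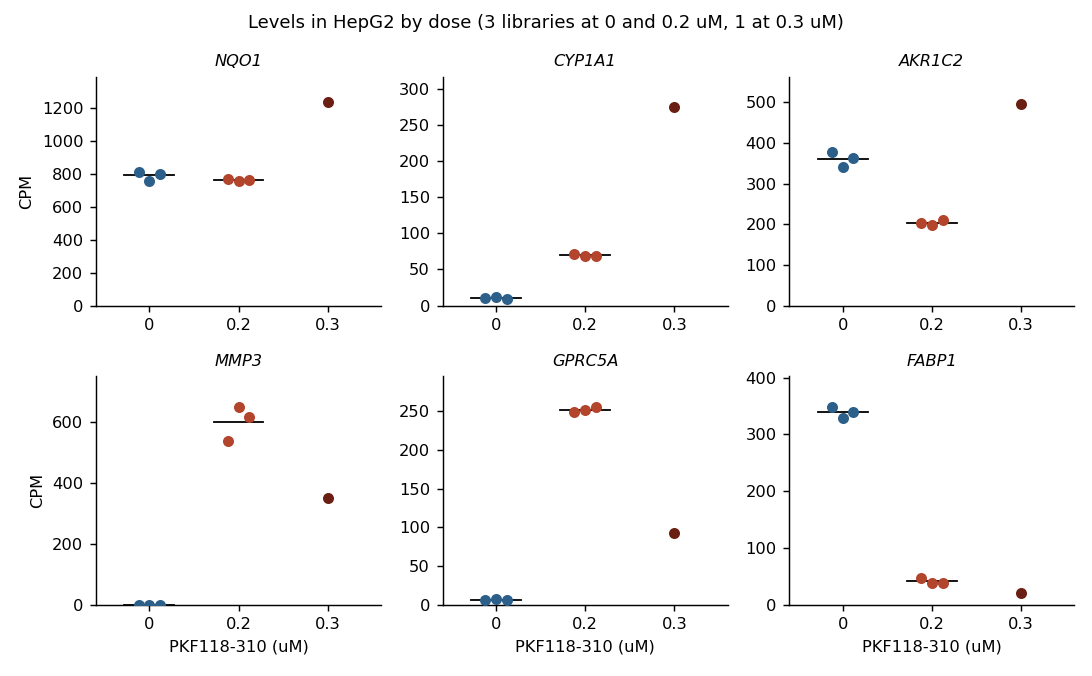
Level in CPM (linear axes from 0) of 6 genes in HepG2 by dose of PKF118-310, with 3 libraries at 0 (vehicle) and 0.2 uM and 1 library at 0.3 uM; lines mark the mean of 3. CYP1A1 increases at each dose, to 275 CPM, while MMP3 and GPRC5A are highest at 0.2 uM.

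The same dose gave a far smaller response in Huh6. In a fit of the 12 libraries of both lines, 113 genes were higher (0.732%) and 167 lower (1.08%) in Huh6 at 0.2 uM, and the median size of the log2 fold change was 0.077 there, against 0.52 in HepG2. The difference of the 2 responses passed the test for 4362 genes more positive in HepG2 (28.3%) and 4332 more negative (28.1%) of 15438 tested. All 29 tested mitosis genes and all 31 replication genes were more negative in HepG2, with median differences of -2.73 and -2.13 on the log2 scale. MKI67 averaged 278 CPM both with PKF118-310 and with vehicle in Huh6, and its difference between lines was -3.46 ± 0.065. ACAT2 had a log2 fold change of 0.02 ± 0.04 in Huh6, a difference of -3.01 ± 0.064.

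Some genes did pass in Huh6 at this dose, with smaller changes. CDKN1A rose there by 0.24 ± 0.031 (175 CPM against 149 CPM), a difference of 2.25 ± 0.043 from HepG2. GDF15 rose by 0.42 ± 0.035 and MT2A by 0.45 ± 0.057, with differences of 1.24 ± 0.044 and 2.79 ± 0.068. JUN changed by -0.15 ± 0.039 in Huh6, against the rise in HepG2, and AREG also by -0.15 ± 0.037. MDK changed by -0.2 ± 0.028 in Huh6, and its difference of -0.06 ± 0.041 did not pass (adjusted p = 0.179). The difference did not pass either for genes near 0 CPM in Huh6, among them NR1H4 (adjusted p = 0.542) and EREG (0.553), nor for F12 (0.265) and MT-ND2. The 6 genes with the most positive differences were MMP3 (10.99 ± 1.7), IGFN1 (8.49 ± 0.69), ANXA1 (7.43), PDE2A (6.73 ± 0.23), CAPN13 (6.70) and SP140 (6.69 ± 0.83). Of these, MMP3, IGFN1 and SP140 averaged under 0.5 CPM in every Huh6 group, whereas PDE2A was expressed there at 6.93 CPM with PKF118-310 and 9.27 CPM with vehicle. The fitted values of ANXA1 and CAPN13 depend on the prior count, since the HepG2 vehicle libraries held 0 counts of both, and these genes were at least 32.9-fold and 12-fold higher in treated HepG2 cells when 3 counts are allowed over the vehicle group. Among the most negative differences were those of COL2A1 (-4.61 ± 0.21), the replication regulator TICRR (-3.91 ± 0.25), MTUS1-DT (-3.83 ± 0.59) and SMTNL2 (-3.75 ± 0.14). That of MBL2 (-4.59 ± 1.2), also among them, was lost without Huh6 PKF118-310 replicate 2 (-3.47, adjusted p = 0.0753). In Huh6, MTUS1-DT averaged 0.359 CPM with PKF118-310 and 0.256 CPM with vehicle, and MBL2 0.119 and 0.0169 CPM. Their change there thus rests on few reads. COL2A1 stood at unlike levels under vehicle, 5.49 CPM in HepG2 and 8610 CPM in Huh6.

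Within HepG2, 0.2 uM PKF118-310 was also set directly against 10 uM iMDK, doses that differ and were not matched for effect. Here 4577 genes were higher (29.6%) and 4507 lower (29.2%) with PKF118-310. The 6 genes most in excess with PKF118-310 were MMP3 (8.71 ± 0.085), PDE2A (5.44 ± 0.15), NTSR1 (5.04 ± 0.083), the receptor tyrosine kinase TIE1 (4.74 ± 0.072), GPRC5A (4.73 ± 0.055) and IGFN1 (4.58 ± 0.087), as log2 differences. The 6 furthest below iMDK were HERC5 (-7.22 ± 0.095), IFI6 (-6.4 ± 0.073), KRT17 (-6.31 ± 0.098), CMPK2, HERC6 and MAP2, of which HERC5, IFI6, CMPK2 and HERC6 are interferon-stimulated genes. IFI6 averaged 5.96 CPM with PKF118-310, 503 CPM with iMDK and 11.7 CPM with vehicle. HERC5 averaged 0.746, 112 and 0.412 CPM in the same order. Of 16 tested interferon-stimulated genes, 15 were lower with PKF118-310 than with iMDK, against 29.2% of all tested genes. Only 11 of the 16 were tested in the fit of 12 libraries without iMDK. The others can have passed the filter through the iMDK libraries, which would favour this direction in advance, so the count is descriptive.

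Other lists also separated the inhibitors. All 29 mitosis genes were lower with PKF118-310, MKI67 averaging 22.4 CPM against 68.6 CPM with iMDK, and CDKN1A was higher by 1.24 ± 0.03. All 23 tested cholesterol genes were lower with PKF118-310 than with iMDK, with ACAT2 at 21.9 CPM against 180 CPM. ALB averaged 693 CPM with PKF118-310 and 3020 CPM with iMDK. The chaperone HSPA5 and B2M were lower with PKF118-310, at log2 differences of -1.58 ± 0.028 and -1.78 ± 0.031. HSPA5 averaged 1010 CPM with PKF118-310, 3030 CPM with iMDK and 1960 CPM with vehicle, so iMDK lay above vehicle. B2M averaged 233, 799 and 361 CPM in the same order. AXIN2 was higher with PKF118-310 by 0.75 ± 0.039 and DKK1 by 1.26 ± 0.033. AXIN2 averaged 193 CPM with PKF118-310, 114 CPM with iMDK and 151 CPM with vehicle. DKK1 averaged 418, 175 and 635 CPM in the same order, so both inhibitors lay below vehicle for DKK1. For MDK (0.04 ± 0.033) and CXCL8 (0.06 ± 0.055) the log2 difference did not pass (adjusted p = 0.258 and 0.366).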

How the data were processed

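The deposited values are raw read counts per gene from poly(A) selected, directional libraries, per the labels' protocols. Per the submitters' processing notes the authors used STAR 2.7.3a, SAMtools 1.16.1, featureCounts and edgeR 3.36 with GRCh38. No source used here gives the annotation release or the strand setting, so reads of overlapping or antisense genes may be mixed. From these counts, edgeR 4.0.16 (R 4.3.3, limma 3.58.1) filtered genes (filterByExpr), scaled libraries by TMM and compared group means by the two-sided quasi-likelihood F test with Benjamini-Hochberg adjustment at 0.05. The HepG2 fit held all 13 HepG2 libraries, which share 1 estimate of spread, and the test between lines held 12. The SE is the size of the log2 fold change over the square root of F, and values are mean ± SD CPM. Totals of 18.3 to 20 M counts limit precision for low genes, and bounds cover counting error only.

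Genes named are the 12 per direction with the largest change among those with adjusted p under 0.05, mean log2 CPM of at least 2, an ordinary gene symbol and groups that do not overlap, 6 per direction in each of the other tests, a set always given, and members of 46 lists. Some genes that meet these conditions are not reported here. Members and lists were chosen with earlier results of these data known. Of 980 genes in the lists, 797 were tested and 106 had 0 counts in all 6 libraries. Alternatives were RLE (DESeq2's size factors), upper quartile or no scaling factors, no filter, DESeq2 1.42.0, a replicate block, the 6 libraries alone, and each replicate left out. Of 15448 tested symbols, 10854 had a RefSeq promoter, as did 499 of the 782 genes higher and 391 of the 632 genes lower by at least 4-fold. Motif shares are described mainly for the mitosis and replication lists, where 24 of 29 and 28 of 31 members had a promoter. They were also computed for other motifs, other lists and genes changed at least 4-fold, and most are not reported here. AP-1 letters occurred in 10.0% of promoters of genes at least 4-fold higher and 4.86% of those lower, against 4.23% of tested genes. For TCF/LEF letters (CTTTGA) these shares were 8.22%, 14.3% and 8.16%, with 11.4% among all promoters searched. This string can overlap the CHR string, which occurred in 21.2% of promoters of genes at least 4-fold lower. The 2 were not separated here.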

Additional observations from a re-analysis of the deposited data

Results flagged for a closer look

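The responses of HepG2 and Huh6 to 0.2 uM PKF118-310 differed by the test of the difference itself (edgeR, 12 libraries, adjusted p under 0.05). It called 4362 genes more positive and 4332 more negative in HepG2. All values that follow are differences of log2 fold changes, HepG2 minus Huh6. Among growth and division genes they were -3.46 for MKI67, -3.91 for TICRR and 2.25 for CDKN1A. Among signalling genes they were 2.21 for JUN, 3.32 for AREG, 4.91 for DUSP5, 0.39 for AXIN2 and -1.31 for NOTUM. Liver and lipid genes gave -2.87 for AFP, -4.59 for MBL2 and -3.01 for ACAT2. The stress genes GDF15 and MT2A gave 1.24 and 2.79. Further values were 10.99 for MMP3, 8.49 for IGFN1, 6.73 for PDE2A, 6.69 for SP140, -4.61 for COL2A1, -3.83 for MTUS1-DT and -3.75 for SMTNL2. MMP3, IGFN1, SP140, MTUS1-DT and MBL2 had few reads in Huh6, so their change there was poorly measured. The fitted values of ANXA1 (7.43) and CAPN13 (6.70) depend on the prior count, since the HepG2 vehicle libraries held 0 counts of both. Dixon's outlier test was not run, as every group held 3 libraries or 1.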

How the results depend on the processing

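All 8 counts of genes over whole comparisons stayed within 1.5 times their main value in every alternative run. Leaving out each replicate gave 4949 to 5124 higher and 4894 to 5058 lower genes in the main comparison, 4180 to 4360 and 4072 to 4278 for the difference between lines, and 4300 to 4348 and 4158 to 4247 against iMDK. Of the 10455 main calls, DESeq2 shared 9505 (90.9%) and scaling by library size alone 9778 (93.5%). No named gene turned its direction past the threshold, and 9 of 241 gene results and 6 of 92 list counts changed their call or moved by over 1.5 times in some setting. These were F12, HERC5, MT-ND2, CMPK2, CAPN13, CTNNB1, NQO1 and, between lines, MBL2 and MDK. NQO1 passed under upper quartile scaling (-0.07) and without vehicle replicate 2 (-0.08), and MDK between lines under the same 2 changes (-0.09 and -0.1). Without vehicle replicate 2, 1 macrophage marker passed as higher. Ribosomal protein genes, 13 higher and 37 lower of 70, became 25 and 21 with library size alone, which moved the median of all genes to 0.093. The causes were not tested. Same-numbered libraries correlated at 0.00289, 0.00602 and 0.00701 in their deviations from the group means. These values cannot show whether same-numbered libraries were handled together, which the labels do not say. The fit with a replicate block called 10409 genes, of which 10384 (99.3%) were among the main calls. Depth limits genes near 0.15 CPM, where 3 counts set the level.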
